A study of Capra hircus with 6 samples.

Results

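The genes described here are the nuclear-encoded genes of the mitochondrial respiratory chain and ATP synthase, in goat intramuscular preadipocytes with and without silencing of LIPG. They were chosen by name alone, as the rows whose gene name begins with NDUF, UQCR, ATP5 or COX4 to COX8, or is CYC1 or SDHA to SDHD. Of the 27271 genes in the files, 50 had such a name. They comprised 25 subunits of complex I, 2 of complex II, 5 of complex III, 8 genes of complex IV, 5 of complex V, and 5 NDUFAF genes, which are assembly factors of complex I and not subunits. No row bore the name SDHA or SDHB. Genes of the chain whose rows lack such a name were not analysed here, so the 50 genes do not cover all subunits of the complexes.

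In oxidative phosphorylation, complex I takes electrons from NADH and complex II takes them from succinate. Ubiquinone carries the electrons to complex III, and cytochrome c carries them on to complex IV, which reduces oxygen. Complexes I, III and IV pump protons across the inner mitochondrial membrane, and complex V, the ATP synthase, uses their return flow to make ATP. All of these complexes except complex II also hold subunits encoded in the mitochondrial genome. In fat cells the chain consumes the reducing equivalents from fatty acid oxidation, and COX7A1, the heart and muscle isoform of a complex IV subunit, is also known from thermogenic fat.

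The cells were wild-type primary preadipocytes from the longissimus dorsi muscle of 3-day-old Jianzhou goats, taken at the third passage. The NC groups (n = 3) received a negative control interfering RNA and the Si-LIPG groups (n = 3) an interfering RNA against LIPG, which encodes endothelial lipase. Both groups were then induced toward adipocytes for 48 h in medium with 50 μmol/L oleic acid. Silencing by a transfected interfering RNA is transient, and whether the 3 libraries of a group came from different goats is not given in the sources used here, so p-values measure the spread between these libraries.

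The 6 poly(A) RNA-seq libraries held 36451898 to 52638817 reads, of which 524776 to 703680 were counted on genes in the NC groups and 864882 to 1051230 in the Si-LIPG groups. The counted share was 0.997% to 1.53% in the NC groups and 1.80% to 2.88% in the Si-LIPG groups, and NC replicate 1 was lowest. LIPG (ENSCHIG00000015994) had 0, 2 and 0 counts in NC and 0, 2 and 2 in Si-LIPG, which is under the limit of 3 counts that a count of 0 allows, so the labels could not be checked on it. Of 12 preadipocyte markers named in the files, 11 had counts, and DLK1 was at 0 in all libraries. Their summed level was 6416 to 13143 FPKM (counts relative to gene length and library size) in the NC groups and 17727 to 18596 FPKM in the Si-LIPG groups, while under TMM, the scaling of the main test, their median log2 fold change was 0.28 beside 0.16 for all genes tested. Of these 11 markers 9 had a log2 fold change above 0 under TMM and 2 below, from −1.07 for ENG to 1.71 for LUM. The 8 adipocyte markers summed to 10.1 to 45.8 FPKM in NC and 20.1 to 47.9 FPKM in Si-LIPG, with LPL at 0. The 8 myogenic markers summed to 58.9 to 114 FPKM and 101 to 109 FPKM. The endothelial markers CDH5, KDR and TEK and the immune markers CD3E and PTPRC were at 0. The endothelial markers PECAM1 and VWF had at most 6 counts in a library. The immune markers CD68 and CSF1R had counts in every library, and the immune list summed to 5.21 to 15.5 FPKM in NC and 5.89 to 16.4 FPKM in Si-LIPG. Both the counted share and the summed FPKM of the preadipocyte markers moved with the groups, and their part in the results below was not tested. In bulk RNA, fewer cells of a type and less RNA per cell cannot be told apart.

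Counts on the 50 genes were few. They summed to 469, 717 and 962 reads in NC replicates 1, 2 and 3 and to 1165, 1985 and 2347 in Si-LIPG replicates 1, 2 and 3, which is 0.0894% to 0.223% of the reads on genes. Of the 50 genes, 29, 38 and 40 had a count in NC and 43, 45 and 46 in Si-LIPG. In total 47 genes had a count somewhere and 25 had one in every library. COX6A2, COX6B2 and COX7B2, isoforms of complex IV subunits that are known from muscle and testis, were at 0 in all 6 libraries. A count of 0 allows a level of up to 5.72 counts per 1000000 gene reads in NC replicate 1 and 2.85 in Si-LIPG replicate 3.

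Levels between genes are given in FPKM, as the mean over the 6 libraries, and a value with ± is the mean and SD of the 3 libraries of a group (n = 3). The highest gene was COX7A1, at 173 FPKM, followed by ATP5F1B, the catalytic beta subunit of ATP synthase, at 119 FPKM. COX5B of complex IV stood at 92.1 FPKM and NDUFS3, a core subunit of the matrix arm of complex I, at 89.1 FPKM. ATP5F1C, the gamma subunit that turns within ATP synthase, had 68.1 FPKM and COX7A2L, which helps join complexes III and IV into supercomplexes, had 67.5 FPKM. The spread between libraries was wide even for these genes. COX5B ranged from 8 counts in NC replicate 1 to 71 in Si-LIPG replicate 3, and its level was 70.1 ± 53.3 FPKM in NC and 114 ± 19.9 FPKM in Si-LIPG. The library ranges of neighbours in this order overlapped, those of COX7A1 and ATP5F1B included. In each library 91.6% to 93.7% of reads fell on no feature, and the strand setting of the counting is not given. Whether this order, and the fold changes below, are those of the genes' own transcripts was not tested.

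The complexes differed in how evenly their genes were detected. All 5 genes of complex V and 14 of 25 of complex I had counts in every library, against 3 of 5 for complex III, 2 of 8 for complex IV, 0 of 2 for complex II and 1 of 5 for the NDUFAF genes. The median level was 40.7 FPKM for complex V, 29.3 FPKM for complex III, 21.5 FPKM for complex II, 20.7 FPKM for complex I, 12.96 FPKM for complex IV and 8.94 FPKM for the NDUFAF genes. The low median of complex IV includes the 3 isoforms at 0. NDUFAF8 was the highest of the assembly factors, at 29.2 FPKM, with counts of 0, 3 and 6 in NC and 4, 6 and 16 in Si-LIPG.

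**Figure D1:**
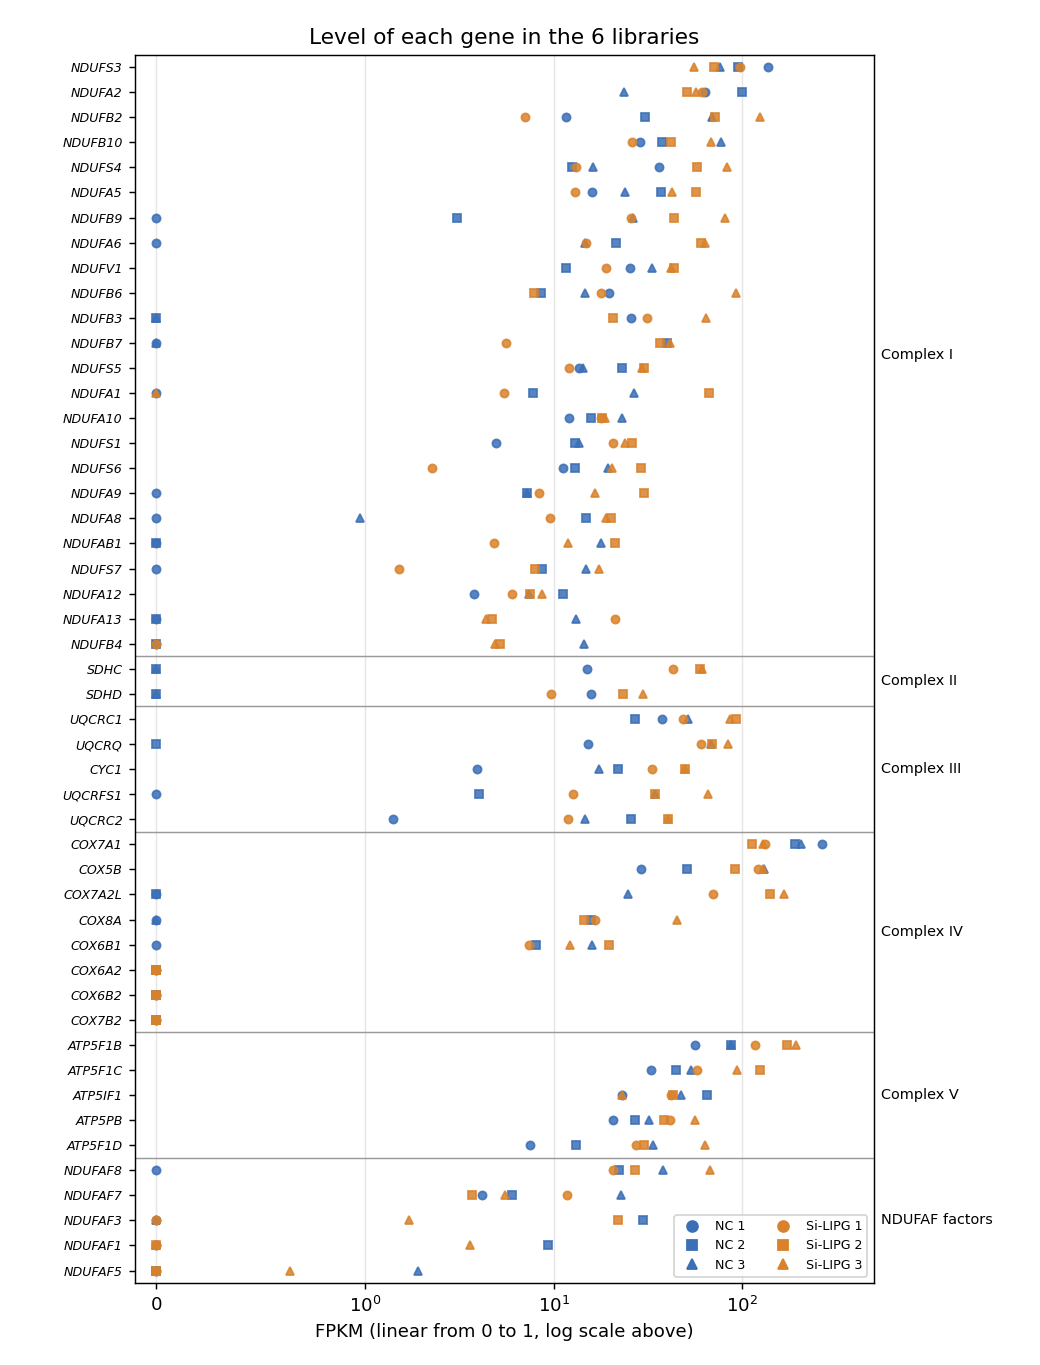
Level of 49 of the 50 genes in FPKM (horizontal axis, linear from 0 to 1 and logarithmic above) in the 3 NC libraries (blue) and the 3 Si-LIPG libraries (orange), ordered within each complex by mean level, with the marker shape giving the replicate. COX7A1 lies highest at a mean of 173 FPKM, 3 genes of complex IV lie at 0 in all libraries, and the groups overlap for most genes.

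The comparison of the Si-LIPG with the NC groups asked whether silencing of LIPG changed the transcripts of the chain. A filter on low counts left 30 of the 50 genes in edgeR's quasi-likelihood test: 16 of complex I, 1 of complex II, 5 of complex III, 3 of complex IV, 5 of complex V and no NDUFAF gene. COX7A2L and SDHC passed this filter through the Si-LIPG libraries alone. COX7A2L was higher in the Si-LIPG groups at the threshold of 0.05 on the Benjamini-Hochberg adjusted p (adjusted p = 0.049956), and the adjusted p of the other 29 genes was above that threshold. This is 3.33% of the 30 genes, while 6.51% of the 6574 genes tested were called (0.974% higher and 5.54% lower). By the criterion the study used, an unadjusted p under 0.05 with a fold change over 1.5, COX7A2L and SDHC were higher and COX7A1 and NDUFS3 lower, which is 13.3% of the 30 genes beside 20.7% of all genes tested (7.83% higher and 12.9% lower). Both shares lay below those of all genes, and a share of this size is not a result about these 30 genes.

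Normalized levels are given as TMM-normalized CPM, the counts per 1000000 gene reads after edgeR's scaling between libraries. On this scale 18 of the 30 genes had a log2 fold change above 0 (60.0%, beside 58.4% of all genes tested) and 12 below. The median log2 fold change was 0.30 for the 30 genes and 0.16 for all genes tested. The groups did not overlap for 6 of the 30 genes, beside 28.7% of all genes tested (15.2% higher and 13.4% lower). COX7A2L, SDHC, CYC1, ATP5F1B and NDUFS1 were the higher ones and COX7A1 the lower one. For COX7A2L and SDHC this order is not independent of the filter, which they passed through the Si-LIPG libraries alone.

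The direction of a gene against 0 depended on the scaling. The counted share, lower in the NC libraries, entered directly when all reads were used and in a fit with it as a covariate. The TMM factors were also lowest in NC replicate 1 (0.60) and highest in Si-LIPG replicate 3 (1.37), the libraries with the lowest and highest counted share. With library sizes alone the median log2 fold change of all genes tested was 0.74, and with scaling to all reads in the files it was 1.58. On the latter scale all 30 genes had a log2 fold change above 0, as 92.3% of all genes tested did. ATP5F1B, COX7A2L and SDHC were called higher there and 0 genes lower, beside 11.4% and 0.00% of all genes tested, and 13 of the 30 were higher by the study's criterion and 0 lower, beside 46.1% and 0.0304%. Relative to the median of all genes, the median of the 30 genes was 0.14 higher under TMM, 0.19 higher with library sizes alone and 0.26 higher with scaling to all reads. Complexes I, III and V each stayed on the same side of that median under the 3 scalings. The median of complex I lay 0.26, 0.19 and 0.12 below it, complex III 0.59, 0.57 and 0.53 above it, and complex V 0.32, 0.35 and 0.38 above it. A change of scaling moves all genes and their median by nearly the same amount, so these sides were largely fixed in advance. With DESeq2, which tests genes of lower count, the median of complex I was 0.26 beside 0.13 for all its genes, so it lay above.

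**Figure D2:**
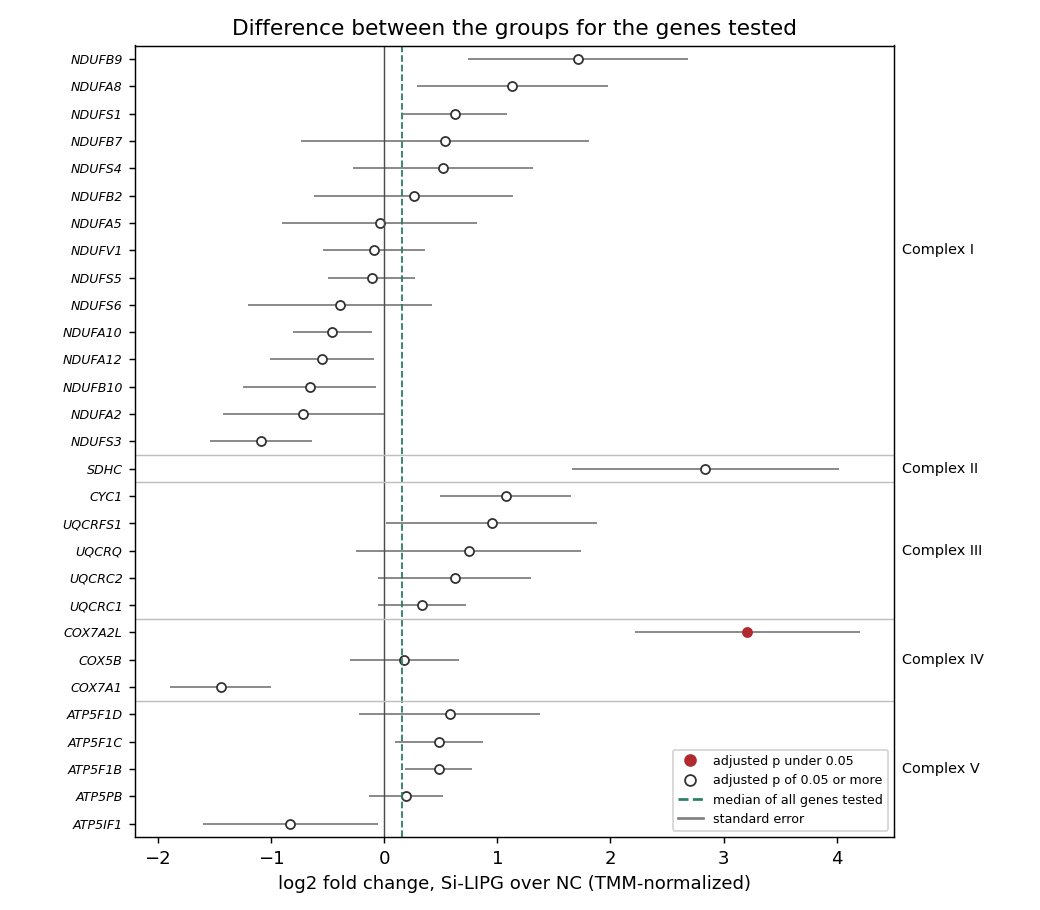
Log2 fold change of the Si-LIPG over the NC groups (horizontal axis, TMM-normalized) with its standard error for 29 of the 30 genes tested, grouped by complex. The filled red point is COX7A2L at 3.21, the dashed line is the median of all genes tested at 0.16, and 9 of the 15 genes of complex I drawn lie below 0 while all 5 genes of complex III lie above it; with scaling to all reads all 29 lie above 0.

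For complex I, 6 of the 16 genes tested had a log2 fold change above 0 and 10 below, with a median of −0.10 under TMM and 1.47 with scaling to all reads. In edgeR and DESeq2 alike 0 genes of the complex passed the adjusted threshold and 1 had an unadjusted p under 0.05, and the smallest adjusted p in edgeR's test was 0.177, for NDUFS3 (ENSCHIG00000017760). NDUFS3 had 58, 46 and 43 counts in NC replicates 1, 2 and 3 and 68, 56 and 47 in Si-LIPG replicates 1, 2 and 3. As TMM-normalized CPM these are 188, 82.9 and 67.8 against 76.7, 45.6 and 34.3. NC replicate 1 was far above the rest, and Si-LIPG replicate 1 lay above NC replicate 3, so there was overlap. The log2 fold change was −1.09 (SE 0.45) under TMM, and on CPM of all reads (counts per 1000000 reads of the library, counted or not) the order turned, from 1.04 ± 0.0918 in NC to 1.40 ± 0.105 in Si-LIPG, with a log2 fold change of 0.43.

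NDUFB9 (ENSCHIG00000020741), an accessory subunit of the membrane arm, had the highest fold change of complex I. It had 0, 1 and 10 counts in NC and 12, 23 and 46 in Si-LIPG. Its log2 fold change was 1.71 (SE 0.97, adjusted p = 0.331), and NC replicate 3, at 15.8 TMM-normalized CPM, lay above Si-LIPG replicate 1, at 13.5. NDUFS1 (ENSCHIG00000014971) encodes the largest core subunit, which holds iron-sulfur clusters. It had 6, 18 and 22 counts in NC and 41, 59 and 58 in Si-LIPG, or 28.9 ± 8.21 against 45.6 ± 2.92 TMM-normalized CPM. The groups did not overlap, but the log2 fold change of 0.62 (SE 0.46) had an adjusted p of 0.491.

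Neither the core subunits of complex I, which carry the electrons and the proton path, nor the accessory subunits around them lay all on 1 side. Of 5 core genes 4 were tested, 1 with a fold change above 0, and of 20 accessory genes 12 were tested, 5 of them above 0. NDUFB2, an accessory subunit, had 2 counts in NC replicate 1 and 2 in Si-LIPG replicate 1 but 43 in Si-LIPG replicate 3, and the spread within the Si-LIPG groups (SD 59.1 FPKM) exceeded the difference between the group means of 37.2 and 67.9 FPKM.

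The only tested gene of complex II was SDHC (ENSCHIG00000008988), which encodes a membrane anchor that binds haem and ubiquinone. It had 4, 0 and 0 counts in NC replicates 1, 2 and 3 and 19, 30 and 33 in Si-LIPG replicates 1, 2 and 3. As TMM-normalized CPM the NC libraries had 12.97, 0 and 0 and the Si-LIPG libraries 21.4, 24.4 and 24.1. Every Si-LIPG library lay above every NC library. SDHC entered the test only through its level in the Si-LIPG libraries, so this order and the p-value are not independent of the filter. The log2 fold change was 2.84 (SE 1.18), and its adjusted p of 0.156 missed the threshold. SDHD, the other anchor, had a count in the same 4 libraries as SDHC, with 4 counts in NC replicate 1 and 4, 11 and 15 in the Si-LIPG libraries, too few for the test.

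In complex III all 5 genes were tested and all 5 log2 fold changes lay above 0 under each of the 3 scalings, with a median of 0.75 under TMM. With the counted share as a covariate 2 of the 5 lay above 0 and 3 below. In edgeR and DESeq2 0 of the 5 passed the adjusted threshold or had an unadjusted p under 0.05. CYC1 (ENSCHIG00000017517) encodes cytochrome c1, which hands electrons to cytochrome c. It had 2, 13 and 12 counts in NC and 28, 48 and 51 in Si-LIPG, or 6.49, 23.4 and 18.9 against 31.6, 39.1 and 37.2 TMM-normalized CPM. The groups did not overlap, and the log2 fold change was 1.07 (SE 0.58, adjusted p = 0.314). UQCRC1 (ENSCHIG00000015164), a core protein of the matrix side and the highest gene of the complex, had 29, 24 and 54 counts against 62, 134 and 134. On the TMM scale these are 74.1 ± 27.1 and 92.3 ± 20.2 CPM, with overlap, and the log2 fold change was 0.34 (SE 0.39, adjusted p = 0.691). The other 3 genes were UQCRFS1, the Rieske iron-sulfur protein, UQCRC2 and UQCRQ. Their counts were 0, 2 and 20 against 9, 28 and 57 for UQCRFS1, 1, 21 and 14 against 14, 54 and 58 for UQCRC2, and 2, 0 and 12 against 13, 17 and 22 for UQCRQ. For all 3 the groups overlapped under TMM.

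Complex IV held both the highest and the lowest fold change of the 30 genes. COX7A2L (ENSCHIG00000014319) had 0, 0 and 6 counts in NC replicates 1, 2 and 3 and 21, 48 and 61 in Si-LIPG replicates 1, 2 and 3. Its TMM-normalized CPM was 0, 0 and 9.46 in NC and 23.7, 39.1 and 44.6 in Si-LIPG. Every Si-LIPG library was above every NC library, on this scale and on CPM of all reads. COX7A2L entered the test only through its level in the Si-LIPG libraries. This order is therefore not independent of the filter, and neither are the p-values of the fits that kept this filter. The log2 fold change was 3.21 (SE 0.99, adjusted p = 0.049956 in edgeR's test). The call lies at the threshold: over the alternatives without a replicate block the adjusted p ran from 0.00754 without a filter on low counts to 1.00 with the counted share as a covariate. It was passed by DESeq2 (adjusted p = 0.0224, with 4.01% of its genes called), with library sizes alone (0.0439, with 1.87% called), with scaling to all reads (0.0462), without a filter on low counts (0.00754, with 4.20% called), without NC replicate 3 (0.0411, with 7.62% called) and without Si-LIPG replicate 1 (0.0383, with 9.86% called). It was lost without NC replicate 1 (adjusted p = 0.101), without NC replicate 2 (adjusted p = 0.102), without Si-LIPG replicate 2 (adjusted p = 0.243) and without Si-LIPG replicate 3 (adjusted p = 0.264). It was also lost with DESeq2 size factors in edgeR (0.0563), with offsets for gene length (0.0512), with limma on log2(FPKM + 1) and log2(FPKM + 0.1) (0.101 and 0.170), and COX7A2L was not tested where at least 10 counts were required in every library.

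COX7A1 (ENSCHIG00000014925), of the same subunit family, had nearly level counts, with 34, 28 and 35 in NC and 28, 27 and 33 in Si-LIPG. On the TMM scale the NC libraries had 110, 50.4 and 55.2 CPM and the Si-LIPG libraries 31.6, 22.0 and 24.1 CPM. The groups did not overlap there, and the log2 fold change was −1.44 (SE 0.45, adjusted p = 0.0700). COX7A1 was called lower where at least 10 counts were required in every library (adjusted p = 0.0388), as 1 of the 11 genes then tested, beside 25.9% of all genes tested there. As CPM of all reads the values were 0.688 ± 0.0625 and 0.737 ± 0.162 with overlap, and the log2 fold change there was 0.10. COX5B, the third gene of the complex in the test, had overlapping groups under TMM. The ubiquitous subunits COX8A and COX6B1 had at most 12 counts in any library and were not tested.

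All 5 genes of complex V in this set had counts in every library. ATP5F1B (ENSCHIG00000010757) had the most counts of all 50 genes, with 52, 92 and 108 in NC replicates 1, 2 and 3 and 177, 300 and 356 in Si-LIPG replicates 1, 2 and 3. Its TMM-normalized CPM was 169, 166 and 170 in NC and 200, 244 and 260 in Si-LIPG. The NC libraries lay close together and the Si-LIPG libraries all above them, with a log2 fold change of 0.48 (SE 0.30), which did not pass the test (adjusted p = 0.396). ATP5F1D (ENSCHIG00000027238), the delta subunit of the central stalk, had 2, 4 and 12 counts against 12, 15 and 34, overlapping groups and a log2 fold change of 0.58 (SE 0.80, adjusted p = 0.740).

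ATP5IF1 (ENSCHIG00000007574), the inhibitor that blocks ATP hydrolysis by the synthase, was the 1 gene of complex V with a fold change below 0 under TMM. It had 4, 13 and 11 counts in NC and 12, 14 and 8 in Si-LIPG. Its groups overlapped, and a log2 fold change of −0.83 (SE 0.77, adjusted p = 0.609) became 0.45 with scaling to all reads.

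**Figure D3:**
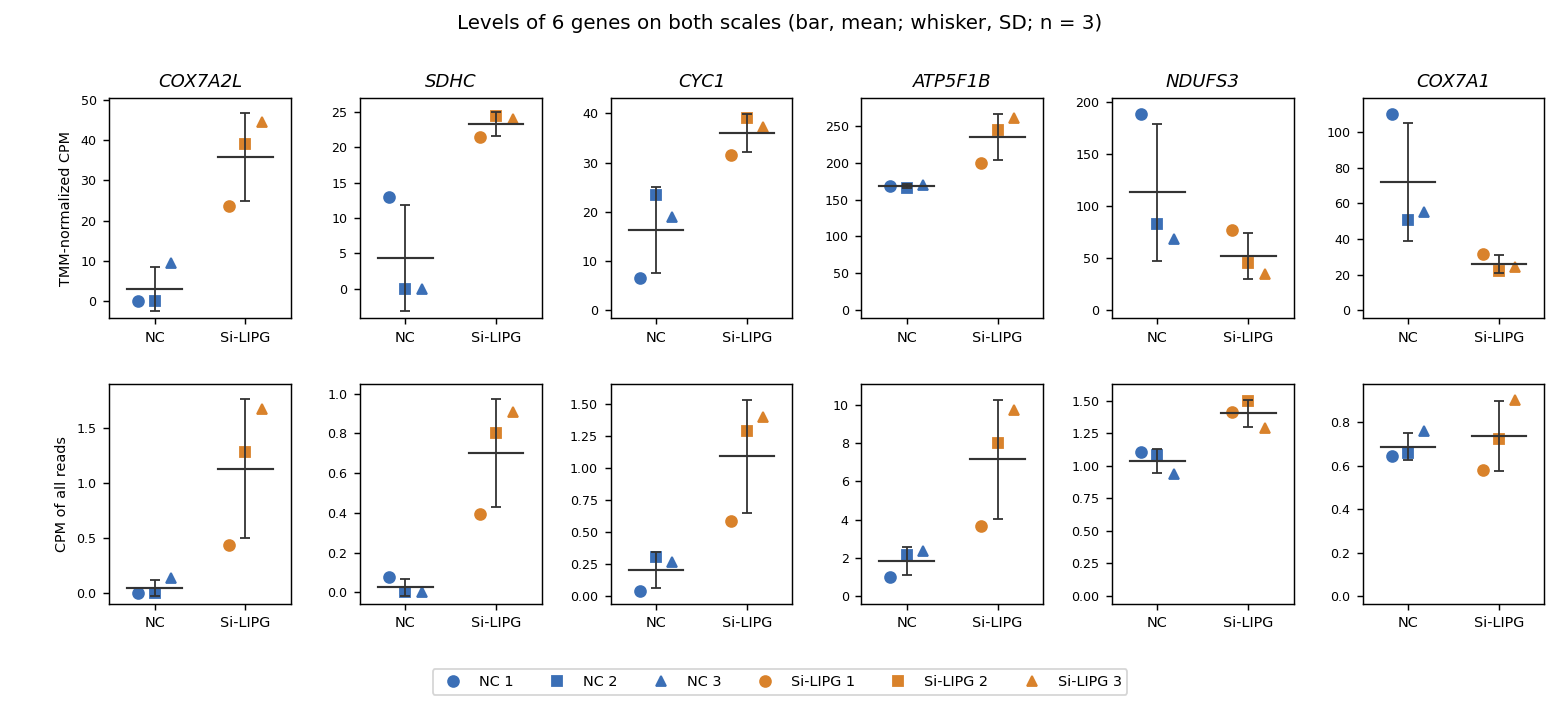
Levels of 6 genes in each library as TMM-normalized CPM (upper row) and as CPM of all reads (lower row), with the NC groups in blue, the Si-LIPG groups in orange, bars for means and whiskers for SD (n = 3). COX7A2L, SDHC, CYC1 and ATP5F1B are higher in all Si-LIPG libraries on both scales, while COX7A1, with 25.9 against 71.9 TMM-normalized CPM on average, overlaps on the lower scale and NDUFS3 is higher there.

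The split of the 50 genes' counts over the complexes does not depend on the scaling between libraries. Complex I took 58.8% (95% exact binomial interval 54.2 to 63.3) of these counts in NC replicate 1, 56.1% (52.3 to 59.7) in NC replicate 2 and 50.8% (47.6 to 54.0) in NC replicate 3. It took 45.8% (42.9 to 48.7) in Si-LIPG replicate 1, 47.8% (45.5 to 50.0) in Si-LIPG replicate 2 and 46.8% (44.8 to 48.9) in Si-LIPG replicate 3. All NC libraries were above all Si-LIPG libraries, although the intervals of NC replicate 3 and Si-LIPG replicates 1 to 3 met. The intervals cover counting error only, and no test was made of these shares.

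Complex V showed the opposite order. Its share was 22.6% (18.9 to 26.7), 25.4% (22.2 to 28.7) and 24.2% (21.5 to 27.1) in NC and 30.3% (27.7 to 33.0), 28.0% (26.0 to 30.0) and 28.3% (26.5 to 30.2) in Si-LIPG. The shares of a library add up to 100%, so this order is not independent of that of complex I. The intervals of all NC libraries met those of Si-LIPG replicates 2 and 3, and that of NC replicate 2 also met that of Si-LIPG replicate 1. ATP5F1B alone gave 52, 92 and 108 of the 106, 182 and 233 counts of complex V in NC. In Si-LIPG it gave 177, 300 and 356 of 353, 555 and 664. Complex III took 9.09% ± 2.28 in NC against 12.9% ± 1.82 in Si-LIPG, with overlap, and complex IV 8.59% ± 1.60 against 8.08% ± 1.34. Within complex I the core subunits went from 26.8% ± 6.53 to 20.01% ± 3.24 and the accessory subunits from 28.4% ± 4.68 to 26.8% ± 4.03, with overlap in both.

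**Figure D4:**
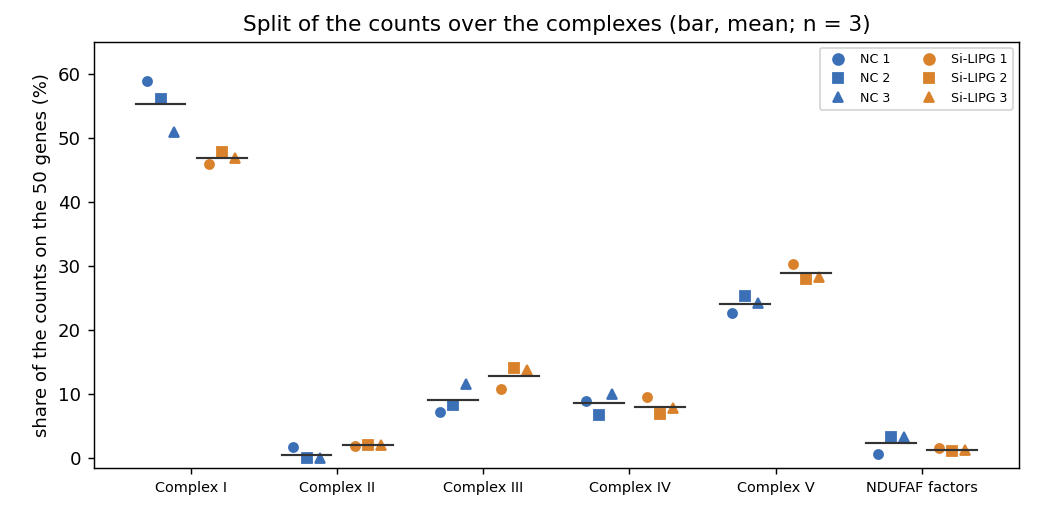
Share of the counts on the 50 genes (vertical axis, percent) that fell on each complex in each library, with the NC groups in blue, the Si-LIPG groups in orange and bars for group means (n = 3). Complex I holds 50.8% to 58.8% in the NC groups and 45.8% to 47.8% in the Si-LIPG groups, and complex V 22.6% to 25.4% and 28.0% to 30.3%.

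The 50 genes together had 8.91, 16.8 and 20.9 CPM of all reads in NC replicates 1, 2 and 3 and 24.3, 53.1 and 64.4 in Si-LIPG replicates 1, 2 and 3. On this scale 13 of the 30 tested genes (43.3%) were higher in every Si-LIPG library than in every NC library and 0 were lower, beside 51.9% and 1.17% of all genes tested. The 50 genes summed to 1443 ± 131 TMM-normalized CPM in NC and 1549 ± 209 in Si-LIPG, or 1.07 times as much. The sum for complex III was 132 ± 38.9 against 202 ± 52.0 and that for complex V 346 ± 19.8 against 445 ± 43.8, while that for complex I was 797 ± 88.3 against 726 ± 108.

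The 13 subunits encoded in the mitochondrial genome, which join the nuclear subunits in complexes I, III, IV and V, were all tested. Under TMM 10 had a log2 fold change below 0, with a median of −0.62. COX2, ATP8, ND3 and ND4L were lower at the adjusted threshold in edgeR's test (4 of 13, beside 5.54% of all genes tested), and ND1, at a log2 fold change of 1.11 (SE 0.35, adjusted p = 0.0738), was the highest of the 13. DESeq2 called 6 of the 13, beside 4.01% of all its genes, with ND1 higher and ND6 lower beside those 4. COX2 had 1428, 1148 and 1104 counts in NC and 1156, 1080 and 978 in Si-LIPG, and a log2 fold change of −1.54 (SE 0.41, adjusted p = 0.0417) that became 0.03 with scaling to all reads. ND3 and ND4L of complex I were at −1.96 (SE 0.49, adjusted p = 0.0400) and −1.89 (SE 0.39, adjusted p = 0.0395), and ATP8 of complex V at −1.98 (SE 0.56, adjusted p = 0.0485). With scaling to all reads these were −0.39, −0.28 and −0.47. ATP8 overlaps ATP6 and ND4L overlaps ND4, so their reads may be split between genes. ND6, the one subunit encoded on the other strand, had 22.6 to 99.3 times the median FPKM of the other 12, and the strand setting of the counting is not given in the sources used here.

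Genes that make or feed the chain were described from lists. Of 36 further assembly factors named in the files, 9 were tested in edgeR, 0 were called and 0 had an unadjusted p under 0.05, and the median log2 fold change was −0.31. DESeq2, which tests genes of lower count, called 1 of them (TMEM70), beside 4.01% of all its genes. Of 15 genes for ubiquinone synthesis and electron transfer to ubiquinone, 6 were tested and 0 were called by edgeR (1 by DESeq2, ETFDH). PDSS1, which makes the ubiquinone side chain, and ETFDH, which passes electrons from fatty acid oxidation to ubiquinone, were lower by the study's criterion, beside 12.9% of all genes tested. PDSS1 had 20, 15 and 30 counts against 21, 14 and 9. Its log2 fold change was −1.74 (SE 0.61, adjusted p = 0.108 in edgeR's test) under TMM and −0.38 with scaling to all reads. ETFDH had 128, 89 and 167 counts against 124, 138 and 140, and its log2 fold change was −1.23 (SE 0.36, adjusted p = 0.0567) under TMM and 0.31 with scaling to all reads.

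Of 19 regulators of mitochondrial biogenesis, 8 were tested and 3 were called lower under TMM, beside 5.54% of all genes tested. ESRRA, a nuclear receptor that switches on genes of the chain, had 317, 337 and 479 counts in NC and 351, 235 and 256 in Si-LIPG, with a log2 fold change of −1.63 (SE 0.36, adjusted p = 0.0395). The transcription factor YY1 had −1.48 (SE 0.38, adjusted p = 0.0400), and POLG, the polymerase that copies mitochondrial DNA, −1.495 (SE 0.39, adjusted p = 0.0411). With scaling to all reads the log2 fold changes of ESRRA, YY1 and POLG were −0.24, 0.14 and 0.06. PPARGC1A, the coactivator known as a master regulator of mitochondrial biogenesis, was at 0 in all libraries.

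All 14 genes of the citric acid cycle and pyruvate dehydrogenase list that are named in the files were tested, 10 of them with a log2 fold change above 0 and a median of 0.69 under TMM. FH, OGDH, MDH2 and SUCLA2 were higher by the study's criterion (4 of 14, beside 7.83% of all genes tested), and SUCLA2 also at the adjusted threshold in edgeR (adjusted p = 0.0415, beside 0.974% of all genes called higher, while DESeq2 gave it no adjusted p). SUCLA2, a subunit of succinyl-CoA synthetase, passed the filter through the Si-LIPG libraries alone. Its p-value, its call and its place among the 4 genes are therefore not independent of the filter. SUCLA2 had 0 counts in every NC library, against 14, 24 and 16 in Si-LIPG, which is at least 7.74-fold higher against a floor of 3 counts over the NC groups. With SUCLA2 at this bound the median of the list was 0.69 again. MDH2, which makes NADH for complex I, had 24, 40 and 79 counts against 127, 220 and 218, and a log2 fold change of 0.80 (SE 0.34, adjusted p = 0.182).

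Neighbouring genes were looked up by name in RefSeq's table for assembly ARS1.2, in which 37 of the 50 genes were found. NDUFS3 overlaps KBTBD4, NDUFB9 overlaps TATDN1, NDUFA2 overlaps TMCO6 and SDHD overlaps TIMM8B, so that their reads may not be told apart from those of the partner. SDHC, ATP5F1B and ATP5IF1 have no neighbour within 1 kb. The genes of complexes III and IV were not matched. The deposited values imply a gene length from 210 to 5017 bases for the 47 genes with a count (median 540), and 34 of the 47 lengths (72.3%) are multiples of 3, beside 60.2% of all genes with a count. Even counts outnumbered odd ones: 58.3% to 64.3% of all non-zero gene counts in a library were even, and of the 50 genes 24 of 29 non-zero counts in NC replicate 1 and 33 of 46 in Si-LIPG replicate 3. Single counts may therefore not stand for independent molecules.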

How the data were processed

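The authors deposited raw counts per gene for 6 libraries and 1 table of FPKM values with gene names for the same genes. The submitters' processing notes name fastp, HISAT2, SAMtools and HTSeq. Versions, genome build and the strand setting of the counting are not given in the sources used here, so no coordinates are printed. Groups came from the sample titles. Rows that name no gene (91.6% to 93.7% of reads fell on no feature) entered neither library sizes nor tests, except where values are scaled to all reads, counted or not.

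The main test was edgeR 4.0.16 in R 4.3.3 (filterByExpr by group, TMM, quasi-likelihood test, no covariate, Benjamini-Hochberg adjustment over 6574 genes). Alternatives included DESeq2 1.42.0, the tool the study names, and limma 3.58.1 on log2(FPKM + 1) and log2(FPKM + 0.1). Figures were drawn in matplotlib 3.10.9. Replicate libraries differed beyond sampling noise (chi-square of 4.21 to 12.5 for each degree of freedom).

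The 50 genes and the lists were chosen with earlier results of these data known. Named for each complex were genes with an adjusted p under 0.05, the highest and lowest tested fold change and the highest mean FPKM. Names for non-overlapping groups, and other single genes, were chosen after their values were seen. A planned comparison of levels with and without a neighbouring gene is void, because fewer than 80% of the 50 genes matched (37), and the RefSeq table holds no strand. Sequences were not analysed here, and the values of 1 of the 50 genes are not reported here on their own.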

Additional observations from a re-analysis of the deposited data

How the results depend on the processing

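The number of genes called was 0 with DESeq2 size factors, with offsets for gene length, with the counted share as a covariate and with limma on either FPKM scale. It was 3 with scaling to all reads (ATP5F1B, COX7A2L and SDHC) and 0 to 1 on leaving out a library. With at least 10 counts in every library the 1 gene called was COX7A1, and COX7A2L was not tested. Genes at the study's criterion numbered 8 with library sizes alone, beside 1983 of all 6574 genes tested. With scaling to all reads they numbered 13, beside 3032. They numbered 2 with at least 10 counts in every library, 1 with the covariate, and 11 and 9 with limma at a pseudocount of 1 and 0.1. On leaving out a library they numbered 2 to 5, with 2 without Si-LIPG replicate 2 or 3. For these last fits the share of all genes is not given here, so the counts are not results about these genes. The median log2 fold change of the tested genes was 0.93 with library sizes alone, 1.84 with scaling to all reads, −0.15 with the covariate, 0.95 and 0.96 with limma, and 0.12 to 0.51 on leaving out a library.

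The median of complex I was 0.54 with library sizes alone, 1.47 with scaling to all reads, 0.26 with DESeq2, 0.32 without a filter, −0.32 with length offsets, −0.67 with the covariate, 0.39 and 0.40 with limma, and −0.28 to 0.11 on leaving out a library. That of complex III was 2.12 with scaling to all reads, −0.0033 with the covariate (2 genes above 0 and 3 below), 1.80 and 1.91 with limma, and 0.42 to 1.16 on leaving out a library. That of complex IV was 0.70 with library sizes alone, 1.47 with scaling to all reads, −1.15 with at least 10 counts in every library, 0.95 and 0.96 with limma, and −0.0686 to 0.87 on leaving out a library (0.87 without NC replicate 3). That of complex V was 1.09 with library sizes alone, 1.97 with scaling to all reads, −0.0223 with the covariate, 1.02 and 1.03 with limma, and 0.19 to 0.55 on leaving out a library. For complex II, SDHC alone, it was 4.55 with scaling to all reads, 4.45 and 6.67 with limma and 2.12 to 7.46 on leaving out a library. The last value is without NC replicate 1, where the NC libraries are at 0 and the fitted value depends on the prior count.

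With scaling to all reads the log2 fold changes of ATP5IF1 (0.45), COX7A1 (0.10) and NDUFS3 (0.43) changed sign, and with the covariate those of ATP5F1D (−0.38), NDUFS3 (0.49) and UQCRC1 (−0.0033). Apart from the changes of scale and of samples, the cause was not tested. Of the 11 named tested genes, all kept their sign with DESeq2, without a filter, with limma and without each library in turn.

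With the replicate number of the titles as a block, 3 genes were called: COX7A2L (adjusted p = 0.005225), COX7A1 (adjusted p = 0.0340) and NDUFS3 (adjusted p = 0.0446). The deviations of same-numbered libraries correlated at 0.21, 0.064 and 0.11 over genes. Replicate 2 of the NC groups correlated at 0.089 with Si-LIPG replicate 3. The titles give only a number, and these values cannot tell whether the libraries were paired.

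With 469 to 2347 reads on 50 genes per library, the filter on low counts kept 20 genes out of edgeR's main test, and the biological coefficient of variation over genes was 40.5%. Groups of 3 libraries were not tested for single outlying samples.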
